A study of Mus musculus with 17 samples.

Results

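The 9 genes described here encode proteins of the contacts between endothelial cells: Cdh5, Pecam1, Cldn5, Ocln, Tjp1, Jam2, Jam3, F11r and Esam. They were chosen by name as proteins of the endothelial junction, and each has 1 row among the 49585 genes of every table. The cells were sorted from the bone marrow of mice that were either wild type (WT) or lacked Eng in endothelium (KO), and their RNA was sequenced. Eng encodes Endoglin, a co-receptor for TGF-beta family ligands. The KO animals carried floxed Eng, with exons 5 and 6 between the loxP sites, and Cdh5:CreERT2, a tamoxifen-inducible Cre recombinase under the endothelial Cdh5 promoter. All 17 libraries, WT included, carry the label of tamoxifen injection, which was given at 8 weeks of age, and the cells were taken 2 or 4 weeks later. The labels do not say whether WT animals carried the Cre transgene, so an effect of Cre in tamoxifen-treated endothelium cannot be told apart from the loss of Eng. Each genotype had 4 libraries at 2 weeks, and at 4 weeks 5 libraries were WT and 4 were KO. A library is called by its sex and number (f1, m2), and 1 female WT library of 4 weeks has no number (f). The series' title names the integrity of the marrow vasculature, and the comparison asks whether the junction genes differed in RNA level between KO and WT.

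Endothelial cells are held together by adherens junctions, built on VE-cadherin (Cdh5), and by tight junctions, in which claudins and occludin span the membrane and ZO-1 (Tjp1) links them to actin. The junctional adhesion molecules (Jam2, Jam3, F11r) and Esam are immunoglobulin-domain proteins of the same contacts, and they also take part in the passage of leukocytes through the vessel wall. Marrow sinusoids are leaky vessels with sparse tight junctions, whereas marrow arterioles are more tightly sealed. Junction proteins are also regulated by phosphorylation, cleavage and movement in and out of the membrane, none of which RNA levels measure.

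Total counts ran from 20477400 to 40882715 per library. Eng, the targeted gene, was lower in each KO library than in each WT library of its time, at 225 to 347 against 705 to 1306.8 CPM (counts scaled to the library total) at 2 weeks and 274 to 1647.3 against 2399.8 to 2734.6 CPM at 4 weeks (exact two-sided permutation test, p = 0.0286 and p = 0.00794, the smallest values possible). The 4-week KO library m2 kept the 1647.3 CPM. The edgeR fits within a time did not call Eng, with log2 fold changes of -1.96 (adjusted p = 0.612) and -1.72 (adjusted p = 1), whereas the joint fit called its mean effect over both times, -1.83 (SE 0.31, adjusted p = 0.0455, rank 13 of 15703 genes). The 2-week and 4-week libraries differed throughout, with 10886 to 13583 against 15996 to 21235 genes detected and 22.2% to 29.5% against 4.66% to 8.99% of counts from mitochondrial genes, so time and batch cannot be told apart. Arterial markers (10 genes) summed to 1997 to 2401 CPM at 2 weeks and 3195 to 4264 CPM at 4 weeks, of which Ly6a, which encodes the sorting marker Sca1, made up 59.8% to 79.8%. Endothelial identity genes (9, of which Cdh5, Pecam1 and Esam are members) summed to 3729 to 5226 CPM in WT and 2903 to 3735 CPM in KO at 2 weeks, and to 8779 to 11116 and 7956 to 10640 CPM at 4 weeks. Sinusoidal markers (8 genes) summed to 393 to 558 and 1123 to 1809 CPM, and lymphatic markers (4 genes) to at most 8.61 CPM. Neutrophil transcripts (9 genes) summed to 4039 and 3154 CPM in the 2-week KO libraries m2 and m3 and to at most 238 CPM elsewhere. Erythroid transcripts summed to 278 to 1251 CPM in KO against 61.4 to 233 CPM in WT at 2 weeks, and to 620 to 2912 against 172 to 1299 CPM at 4 weeks. In such bulk libraries, fewer cells of a type and less RNA per cell cannot be told apart.

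All members but Ocln were expressed in each library. Per kilobase of annotated exon, the 4-week WT libraries had Cldn5 at 721 ± 98.7 CPM per kb (SD, n = 5), Esam at 693 ± 80.2, Pecam1 at 457 ± 32.4, F11r at 273 ± 41.1, Jam2 at 204 ± 29.1, Cdh5 at 161 ± 14.6, Jam3 at 41.4 ± 9.61, Tjp1 at 30.2 ± 12.1 and Ocln at 0.0383 ± 0.0647. In that order the ranges of the neighbours Cldn5 and Esam overlapped, as did those of F11r and Jam2, Jam2 and Cdh5, and Jam3 and Tjp1. The steps from Esam to Pecam1, from Pecam1 to F11r, from Cdh5 to Jam3 and from Tjp1 to Ocln had no overlap between libraries. The 2-week WT libraries began with Esam at 371 ± 44.6 CPM per kb (SD, n = 4) and Cldn5 at 250 ± 88.1, and ended with Jam3 at 29.5 ± 11.6, Tjp1 at 15.9 ± 3.65 and Ocln at 0. The lowest 3 places were held by the same genes in all 4 groups.

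**Figure D1:**
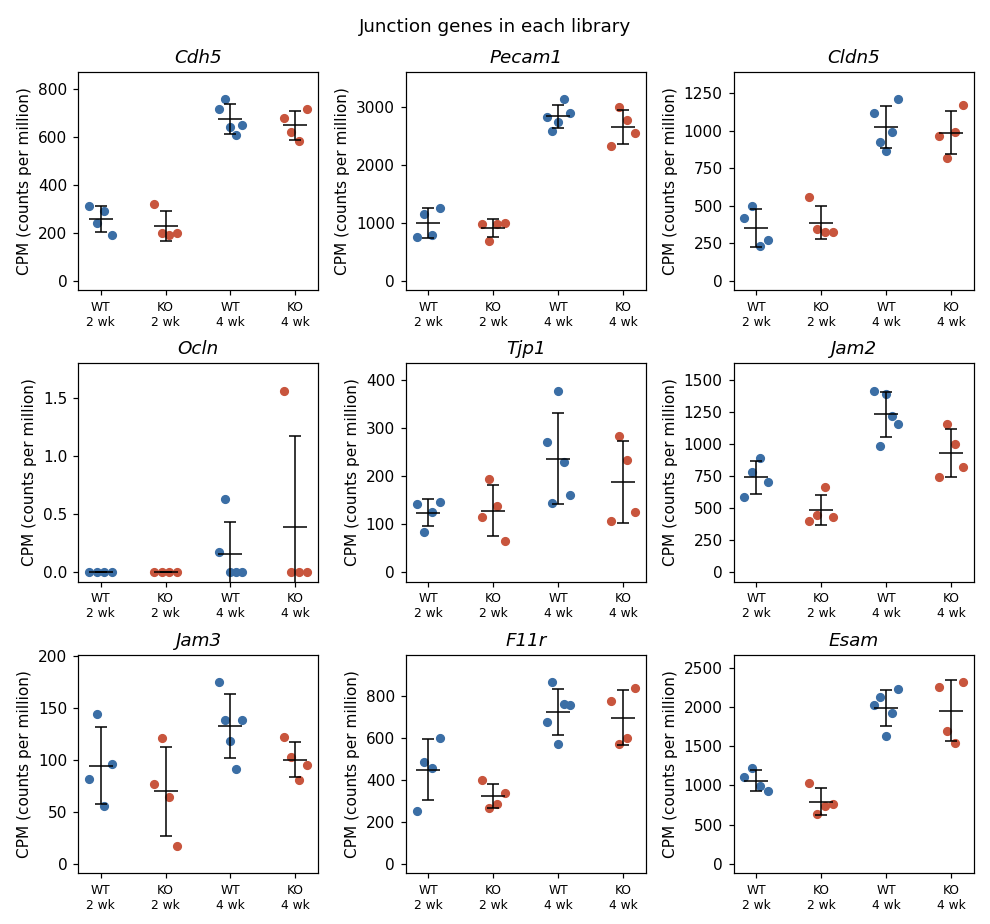
CPM (vertical axis, linear, 1 scale per gene) of the 9 junction genes in each library, by genotype and time after tamoxifen (points: libraries; dash and bars: mean and SD; blue WT, red KO). KO and WT points overlap for each gene at each time, the nearest to a separation being Jam2, and Ocln is at 0 in 14 of 17 libraries.

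Of the adherens and lateral contact proteins, Cdh5 (chromosome 8, 104101625 to 104144511, plus strand, GRCm38), the cadherin that carries endothelial adhesion and whose promoter drove the Cre, had 312, 241, 293 and 190 CPM in WT at 2 weeks and 323, 199, 193 and 200 CPM in KO (libraries in the order f1, f4, m2, m3). At 4 weeks it had 719, 759, 643, 609 and 649 CPM in WT (f, f3, m1, m2, m3) and 680, 620, 583 and 718 CPM in KO (f2, m1, m2, m3). The genotypes overlapped at both times, and at 2 weeks 3 of 4 KO libraries lay close together at the low end of the WT range. The log2 fold change, KO over WT, was -0.19 (SE 0.208) at 2 weeks and -0.01 (SE 0.116, 95% interval -0.27 to 0.26) at 4 weeks, each with an adjusted p of 1 (edgeR quasi-likelihood test, Benjamini-Hochberg adjustment over all genes). That interval is no limit of detection, as the same fit did not call Eng at -1.72 after adjustment over all genes. With 1 library left out the 2-week value ran from -0.34 (without KO f1) to -0.07 (without WT m2).

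Pecam1 (CD31; chromosome 11, 106654217 to 106750628, minus strand) is the homophilic adhesion protein by which the cells were sorted, so its presence says nothing beyond the gate. It had 763, 1163.5, 794 and 1268.6 CPM in WT and 990, 688, 988 and 1009.8 CPM in KO at 2 weeks, and 2832.6, 2597.6, 2745.6, 3142.9 and 2903.4 CPM in WT and 2324.8, 3004.4, 2784.2 and 2559.5 CPM in KO at 4 weeks. The KO values lay within the WT range at 2 weeks apart from the low f4, and reached below it at 4 weeks in f2 and m3. The fold changes were -0.13 (SE 0.219) and -0.10 (SE 0.0922) on the log2 scale, adjusted p of 1 at both times. The ratio of Pecam1 to Cdh5 within a library averaged 4.16 and 4.17 in WT and KO at 2 weeks and 4.25 and 4.15 at 4 weeks, with SDs of 0.646 to 1.98.

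Cldn5 (chromosome 16, 18776847 to 18778262, plus strand), the main claudin of endothelial tight junctions, had 419, 495, 230 and 269 CPM in WT and 556, 345, 327 and 325 CPM in KO at 2 weeks. Its 4-week levels were 1113.5, 926, 864, 992 and 1208.6 CPM in WT and 965, 817, 992 and 1168.6 CPM in KO. No separation of the genotypes was seen at either time, and the highest 2-week library was a KO. Its log2 fold changes were 0.18 (SE 0.19) and -0.03 (SE 0.151), adjusted p of 1 for both.

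Ocln (chromosome 13, 100496507 to 100552718, minus strand), encoding occludin, a tight junction protein abundant in epithelia and in vessels with a barrier, had a count of 0 in all 8 libraries of 2 weeks. Among the 4-week libraries it had 0.178 CPM in WT f, 0.63 CPM (17 counts) in WT f3 and 1.56 CPM (32 counts) in KO f2, and 0 in the other 6. In the 14 libraries without a count, 0 allows a level of up to 0.0734 to 0.122 CPM (3 counts of the library's total, counting error only). Ocln did not pass the low-count filter of the main fits and no fold change is given for it, while Cldn5 was at 230 to 1208.6 CPM in the same libraries. The promoters of these 2 genes are shown because they hold the first and last place of the 4-week level order, where Cldn5 and Esam overlap (Esam was first at 2 weeks); each runs from 250 bases before to 50 after the start, 5′ to 3′ on the gene's strand (RefSeq, GRCm38.p6), with the letters GGAA, the core read by ETS family factors, or TTCC, the same on the other strand, in capitals.
Cldn5, chr16:18776597-18776896, plus strand: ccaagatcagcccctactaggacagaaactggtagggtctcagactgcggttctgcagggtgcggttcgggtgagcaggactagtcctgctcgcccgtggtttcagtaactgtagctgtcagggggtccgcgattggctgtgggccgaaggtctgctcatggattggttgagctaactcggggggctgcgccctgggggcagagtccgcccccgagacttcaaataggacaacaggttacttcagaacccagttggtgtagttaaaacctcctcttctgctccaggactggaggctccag
Ocln, chr13:100552669-100552968, minus strand: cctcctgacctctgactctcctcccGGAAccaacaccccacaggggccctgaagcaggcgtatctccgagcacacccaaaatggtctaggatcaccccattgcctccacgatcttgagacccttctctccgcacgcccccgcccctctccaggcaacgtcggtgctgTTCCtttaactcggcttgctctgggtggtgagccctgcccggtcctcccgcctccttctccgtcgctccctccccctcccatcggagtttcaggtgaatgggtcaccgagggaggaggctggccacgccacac
The Cldn5 window held GGAA on neither strand, and the Ocln window held 2 copies, 1 of them within CCGGAA, searched on both strands. A second annotated Ocln promoter, chr13:100552449-100552748, held 2 copies of GGAA and none of CCGGAA, at 68% GC. Of 32851 promoters of the same length, 96% held GGAA, with a median of 3 copies, and 14.9% held CCGGAA. GC content was 58.3% in the Cldn5 window and 64% in the Ocln window shown, against a median of 52.7% over all promoters. Promoters were available for 4 members, and these counts describe letters only.

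Tjp1 (chromosome 7, 65296165 to 65527781, minus strand), the scaffold ZO-1, had 141, 84.1, 125 and 147 CPM in WT and 116, 193, 137 and 65.4 CPM in KO at 2 weeks. The 4-week values were 271, 143, 377, 230 and 160 CPM in WT and 107, 283, 233 and 125 CPM in KO. The spread within each 4-week group was wide (coefficient of variation 40.0% in WT and 45.4% in KO, against 9.1% and 9.3% for Cdh5), and the low libraries, f3 and m3 in WT and f2 and m3 in KO, came from both genotypes. Its log2 fold change was 0.01 (SE 0.369) at 2 weeks and -0.45 (SE 0.337) at 4 weeks, adjusted p of 1 for both. The 95% interval at 4 weeks, -1.21 to 0.32, takes in differences of either sign. With 1 library left out the value ran from -0.65 (without KO m1) to -0.22 (without WT m1).

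Among the junctional adhesion molecules, Jam2 (JAM-B; chromosome 16, 84774123 to 84825928, plus strand), which binds JAM-C on neighbouring cells, had the lowest p-values of the set. At 2 weeks it had 587, 779, 889 and 707 CPM in WT and 404, 448, 664 and 433 CPM in KO. The 4-week levels were 1415.2, 986, 1387.4, 1214.3 and 1159.4 CPM in WT and 742, 1158.9, 1002.0 and 817 CPM in KO. Each KO library lay below the WT mean of its time, 4 of 4 at both times, but m2 at 2 weeks and m1 and m2 at 4 weeks lay within the WT range. Mean CPM in KO differed from WT by -34.2% at 2 weeks and -24.5% at 4 weeks, with p = 0.0571 and p = 0.0556 by exact permutation (two-sided). In the edgeR fits the 2-week log2 fold change was -0.61 (SE 0.157; unadjusted p = 0.00622, adjusted p = 1) and the 4-week one -0.42 (SE 0.143; unadjusted p = 0.0164, adjusted p = 1). Neither passed the threshold over all genes, whereas DESeq2 called the 2-week effect (-0.62, adjusted p = 0.0233).

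Averaged over both times in the joint fit of 17 libraries, the Jam2 effect was -0.52 (SE 0.11, 95% interval -0.75 to -0.28) on the log2 scale, with an unadjusted p of 0.000333 and an adjusted p of 0.126, rank 40 of 15703 genes in the fit that called Eng. It passed the adjusted threshold of 0.05 in 3 of 29 alternatives: DESeq2 (-0.54, adjusted p = 0.000388), edgeR without the 2-week KO library m2 (-0.58, adjusted p = 0.0213), and edgeR without the neutrophil-rich 2-week KO libraries m2 and m3 (-0.58, adjusted p = 0.0224). These fits called 1396, 60 and 289 genes in all, against 13. Over these alternatives the effect ran from -0.58 to -0.36 and the adjusted p from 0.000388 to 0.457. The value nearest 0 came with a term for transcript length (SE 0.095, adjusted p = 0.457), and a term for summed stromal transcripts gave -0.45 (SE 0.109, adjusted p = 0.304); both terms were added after the data were seen. The difference between the effects of the 2 time points was 0.14 (SE 0.217, adjusted p = 1).

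Jam3 (JAM-C; chromosome 9, 27097384 to 27155421, minus strand), the main binding partner of Jam2, had 82.1, 144, 55.7 and 95.9 CPM in WT and 76.8, 121, 64.9 and 17.1 CPM in KO at 2 weeks. At 4 weeks it had 175, 139, 118, 91.1 and 139 CPM in WT and 122, 103, 81.2 and 95.1 CPM in KO. KO libraries were below the WT mean in 3 of 4 cases at 2 weeks and 4 of 4 at 4 weeks, inside a wide overlap. The log2 fold changes were -0.55 (SE 0.499) and -0.31 (SE 0.163), adjusted p of 1 for both, and with 1 library left out at a time the 2-week value ran from -0.89 (without KO m2) to -0.23 (without KO m3, the library with 17.1 CPM); it was -0.27 without WT m3. These counts are uncertain: 1159 exon bases of Jam3 are shared with Gm48796, an antisense gene on the opposite strand, and the sources used here do not give the strand setting of the counting. Gm48796 took 29.6% to 35.1% of the counts of both genes in each library, and the sum of both gave log2 ratios of -0.44 and -0.39 between the KO and WT means.

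F11r (JAM-A; chromosome 1, 171437535 to 171464603, plus strand), also found on platelets and leukocytes, had 253, 484, 456 and 602 CPM in WT and 399, 268, 288 and 340 CPM in KO at 2 weeks. Its 4-week values were 675, 867, 573, 763 and 756 CPM in WT and 777, 571, 602 and 840 CPM in KO. At 2 weeks 3 of 4 WT libraries lay above all KO libraries and f1 lay below them, while the 4-week groups were intermingled. The log2 fold change was -0.45 (SE 0.266, adjusted p = 1) at 2 weeks, with values from -0.65 (without WT f1) to -0.28 (without WT m3) when 1 library was left out, and -0.02 (SE 0.178, adjusted p = 1) at 4 weeks. Over all 22 alternatives the 2-week value ran from -0.65 to -0.17. The summed transcripts of 9 megakaryocyte and platelet genes were at most 82.8 CPM in any library.

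Esam (chromosome 9, 37528078 to 37538319, plus strand), an adhesion molecule of endothelial tight junctions and platelets, had 1101.3, 1222.9, 992 and 932 CPM in WT and 1033.8, 633, 744 and 758 CPM in KO at 2 weeks. At 4 weeks it had 2023.1, 2130.9, 1629.4, 1919.0 and 2226.1 CPM in WT and 2251.3, 1698.1, 1540.0 and 2314.9 CPM in KO. At 2 weeks 3 of 4 KO libraries lay below the lowest WT library, with f1 inside the WT range, and at 4 weeks the KO libraries lay at both ends of the WT range. Its 2-week log2 fold change was -0.42 (SE 0.147; unadjusted p = 0.0252, adjusted p = 1) and its 4-week one 0.02 (SE 0.165, adjusted p = 1). With 1 library left out the 2-week value ran from -0.54 (without KO f1) to -0.28 (without KO f4). By exact permutation p was 0.0857 at 2 weeks, and the difference between the 2 effects, 0.42 (SE 0.215), had an adjusted p of 0.583.

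In counts, none of the 8 members tested passed the adjusted threshold at 2 weeks, where 0% of 10477 genes did with edgeR (276 genes had an unadjusted p under 0.05, DESeq2 called 149 with Jam2 among them, and limma voom called 12). None passed at 4 weeks either, against 0% of 15209 genes (422 with an unadjusted p under 0.05, DESeq2 17, limma voom 0). Jam2 and Esam were lower in KO at an unadjusted p under 0.05 at 2 weeks, as were 1.47% of all genes tested, and Jam2 at 4 weeks, as were 1.47%. For the mean effect over both times 0 of 8 members passed with edgeR, against 0.0828% of 15703 genes, while DESeq2 called 1, Jam2, among 1396 genes and limma voom 0 among 7. Jam2 alone was lower at an unadjusted p under 0.05 with edgeR, against 5.58% of genes. For the difference between the times 0 of 8 passed with edgeR, against 0.0764%, and 0 had an unadjusted p under 0.05; DESeq2 and limma voom also called 0 members, among 1303 and 5 genes. No member had KO and WT libraries without overlap, a pattern seen in 3.36% of genes at 2 weeks and 1.19% at 4 weeks. Of the 8 members, 6 had a negative fold change at 2 weeks and 7 at 4 weeks, against 53.1% and 48.7% of all genes tested. The median member had -0.30 against -0.06 for all genes at 2 weeks, and -0.07 against 0.01 at 4 weeks. The 6 endothelial identity genes that are no members (Tie1, Tek, Erg, Emcn, Kdr and Robo4) had a negative fold change in 5 cases at 2 weeks and 4 at 4 weeks, with medians of -0.33 and -0.26, and none was called.

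**Figure D2:**
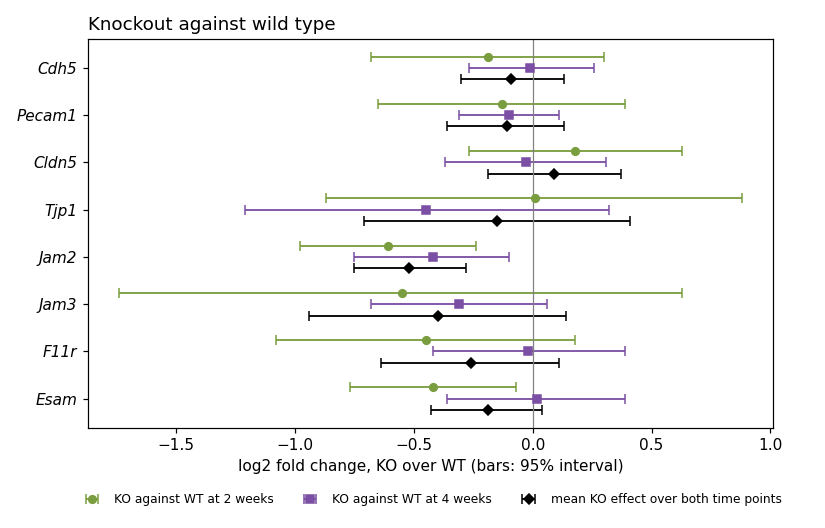
Log2 fold change of KO over WT (horizontal axis) with its 95% interval for the 8 members tested, at 2 weeks (green), at 4 weeks (purple) and averaged over both in the joint fit (black). The intervals of Jam2 lie below 0 in all 3 fits, before adjustment over genes, that of Esam does so at 2 weeks only, and those of the others cross 0.

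The libraries of 4 weeks differed in the balance of long and short transcripts. A length index was taken for each library as the median log2 CPM, centred on the gene's mean over the libraries of that time, of protein-coding genes with over 6 kb of exon less that of genes under 3 kb (1389 and 1345 genes at 4 weeks, mean log2 CPM of at least 5). It was -0.39 to -0.12 in WT f3 and m3 and KO f2 and m3, and 0.14 to 0.27 in the other 5 libraries of 4 weeks. Tjp1 had 107 to 160 CPM in the first 4 libraries and 230 to 377 CPM in the other 5, without overlap, and Esam 2130.9 to 2314.9 against 1540.0 to 2023.1 CPM, also without overlap but in the opposite direction. Such a separation was seen in 11.1% of 15209 genes.

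The index is built from exon length, so long genes as a class are lower and short genes higher in the libraries of low index by construction, and the members' values are a description only. Of the 8 members, 3 are in the long class of the index, Tjp1 (7.81 kb), Pecam1 (6.23 kb) and Jam2 (6.04 kb), and their log2 ratios of the low-index to the other libraries were -1.06, -0.16 and -0.42. Another 3 are in its short class, Esam (2.87 kb) at 0.34, F11r (2.66 kb) at 0.35 and Cldn5 (1.42 kb) at 0.16. The 2 outside both classes were Cdh5 (4.2 kb) at 0.14 and Jam3 (3.2 kb) at 0.12.

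The members did not vary together as 1 group. Over their 28 pairs, Pearson's r of log2 CPM ran from -0.84 to 0.881 across the 9 libraries of 4 weeks (median 0.0768) and from -0.481 to 0.722 across the 8 libraries of 2 weeks (median 0.134). The pairs at the ends of the 4-week range had values closer to 0 at 2 weeks. Tjp1 with Jam2 had 0.869 at 4 and 0.0575 at 2 weeks, and F11r with Esam 0.881 and 0.47. Tjp1 with F11r had -0.84 and -0.256, and Tjp1 with Esam -0.815 and -0.297. The points of each time share libraries, depth and the length index.

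The same 4 libraries of low index had the lowest sums of the 8 mesenchymal stroma genes, 867 to 1227 against 2093 to 2960 CPM, of which Cxcl12, a chemokine gene that marrow endothelium also expresses, made up 92.2% to 96.1%. The other 7 genes of that list summed to 48.7 to 215 CPM at 4 weeks. The sums and the index thus separated the libraries in the same way, and their parts in the members' levels cannot be told apart.

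**Figure D3:**
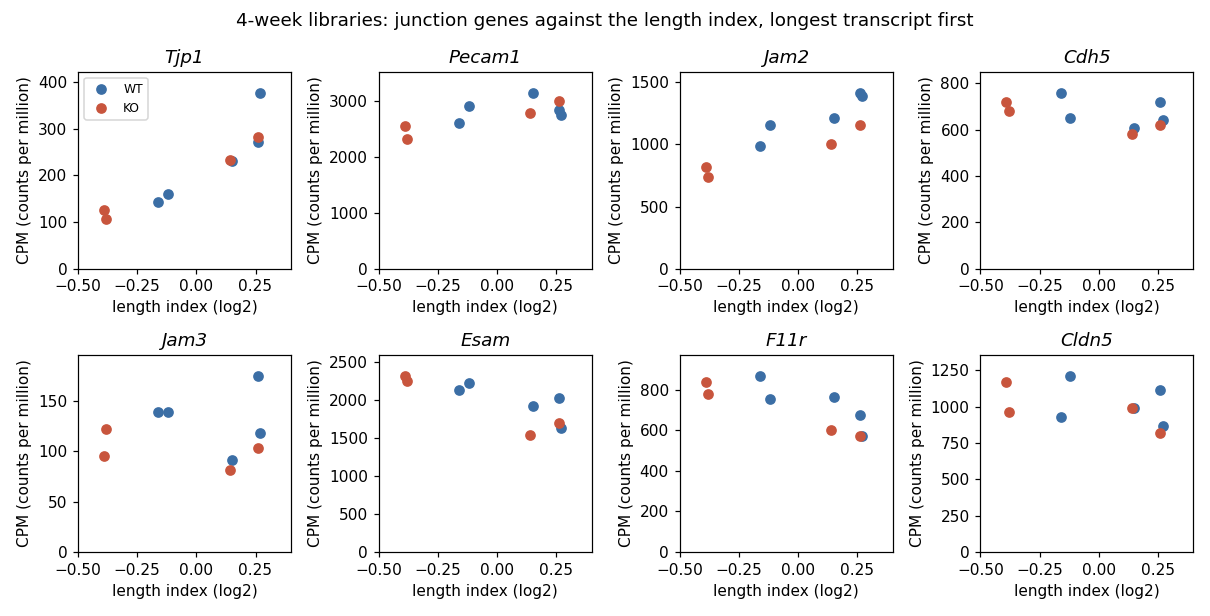
CPM (vertical axis, from 0) of 8 members in the 9 libraries of 4 weeks against the length index of the library (horizontal axis, log2), ordered from the longest transcript to the shortest (blue WT, red KO). Tjp1 is lower and Esam higher in the 4 libraries of low index without overlap, and Jam2 and F11r overlap between the 2 sets. The red points of Jam2 lie below the blue ones on either side, as was so for 1.72% of 15209 genes, and overlap with them over all 4-week libraries.

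The index overlapped between the genotypes at both times, and no difference in it was tested. At 2 weeks the overlap came from KO m2 (0.07) alone, and KO f1, f4 and m3 (-0.21, -0.04 and -0.05) lay below each WT library. The 2-week fits with the index as a term can therefore hardly tell it apart from genotype. At 2 weeks it was 0.00 to 0.26 in WT and -0.21 to 0.07 in KO, and protein-coding genes of 5 to 8 kb had a median log2 fold change of -0.10, with an 80% range of -0.80 to 0.56. At 4 weeks the index was -0.16 to 0.27 in WT and -0.39 to 0.26 in KO, and the genes of 5 to 8 kb had a median of -0.08, with the same range at -0.48 to 0.23. Jam2, at -0.61 and -0.42, lay below both medians and within both ranges. Within the 4-week libraries of low index Jam2 had 986 and 1159.4 CPM in WT and 742 and 817 CPM in KO, and within the others 1214.3 to 1415.2 CPM in WT and 1002.0 to 1158.9 CPM in KO, without overlap of the genotypes in either set. These are 2 against 2 and 3 against 2 libraries. Of 15209 genes, 37% did not overlap within the first set and 18% within the second, and 1.72% had KO below WT in both, Jam2 alone among the members. The sets were drawn from these same data, and Jam2 is in the long class of the index. Over all 4-week libraries the genotypes overlapped for Jam2 (p = 0.0556, exact permutation, two-sided). With the index as a term of the fit, chosen after the data were seen, the log2 fold change of Jam2 was -0.26 (SE 0.229) at 2 weeks and -0.30 (SE 0.0794) at 4 weeks, adjusted p of 1 for both. With the summed stromal transcripts as a term it was -0.33 (SE 0.111, adjusted p = 1) at 4 weeks. The 4-week value of Tjp1 moved from -0.45 to -0.06 (SE 0.141) with the index as a term, and the 2-week value of Jam3 from -0.55 to 0.79 (SE 0.629). Other 2-week values moved away from 0, that of Cdh5 from -0.19 to -0.81 (SE 0.23) and that of Esam from -0.42 to -0.72 (SE 0.244), each with an adjusted p of 1. The parts of length and of other cell types in the Jam2 difference were not tested beyond these fits.

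Between the time points 4 members were called, within the limit that time and batch cannot be told apart. In WT, Cldn5 was higher at 4 than at 2 weeks by 1.30 on the log2 scale (SE 0.188, adjusted p = 0.00117), Pecam1 by 1.17 (SE 0.162, adjusted p = 0.000818), Cdh5 by 1.11 (SE 0.141, adjusted p = 0.000402) and Esam by 0.62 (SE 0.15, adjusted p = 0.0269). These 4 of 8 members compare with 5.03% of 15703 genes called higher at 4 weeks and 1.88% called lower. The 6 endothelial identity genes that are no members were also higher at 4 weeks in sum, at 3291 to 5541 against 1553 to 2599 CPM in WT and 2699 to 5317 against 1096 to 1810 CPM in KO. Of these, only Emcn, encoding endomucin, was called in WT (1.35, SE 0.24, adjusted p = 0.00441), with a median of 0.90 over the 6, and Emcn and Robo4 were called in KO, with a median of 0.81. A rise of junction genes apart from other endothelial genes was not tested. Not past the threshold were Tjp1 at 0.58 (SE 0.362), Jam2 at 0.41 (SE 0.15, adjusted p = 0.115), F11r at 0.38 (SE 0.242) and Jam3 at 0.25 (SE 0.346). Each 4-week WT library lay above each 2-week one in CPM for Cdh5, Pecam1, Cldn5, Esam and Jam2. The same was so for 16.1% of 15703 genes. These CPM were scaled to library totals, without the scaling factors (TMM) of the joint fit. Those factors were lower in each 2-week library than in each 4-week one. CPM thus sets the 4-week libraries higher against the 2-week ones than the fit does. For Jam2 the gap was narrow, from 889 CPM in 2-week WT m2 to 986 CPM in 4-week WT f3. Whether the separation holds with the factors was not tested.

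In KO the same 4 genes were called, with Cdh5 at 1.27 (SE 0.149, adjusted p = 0.00023), Pecam1 at 1.18 (SE 0.17, adjusted p = 0.00125), Cldn5 at 1.14 (SE 0.196, adjusted p = 0.00411) and Esam at 1.04 (SE 0.159, adjusted p = 0.00207). Of all genes, 4.84% were called higher and 1.49% lower. F11r, at 0.80 (SE 0.257, adjusted p = 0.0781), and Jam2, at 0.55 (SE 0.16, adjusted p = 0.0552), did not pass. F11r in KO passed in 3 of 26 alternatives (DESeq2 adjusted p = 0.0146) and Jam2 in KO in 5 of 26 (DESeq2 0.00853), and Jam2 in WT passed with DESeq2 (0.0465). The median of all genes was itself 0.42 in WT and 0.49 in KO, which leaves Cldn5, Pecam1 and Cdh5 well above it and Esam in WT close to it. Over the 3381 protein-coding genes with a mean log2 CPM of at least 5 the median was -0.02 in WT and 0.00 in KO, with 90% of genes below 0.98 and 1.09. Relative to Cdh5 within a library, Cldn5 had ratios of 1.4 ± 0.519 at 2 weeks and 1.52 ± 0.25 at 4 weeks in WT (SD, n = 4 and n = 5), whereas Jam2 had 2.97 ± 0.778 and 1.84 ± 0.33, F11r 1.89 ± 0.988 and 1.08 ± 0.155, and Esam 4.22 ± 0.889 and 2.95 ± 0.348. The same ratios in KO (SD, n = 4 at each time) were 1.69 ± 0.0473 and 1.52 ± 0.178 for Cldn5, 2.28 ± 0.895 and 1.45 ± 0.397 for Jam2, 1.44 ± 0.202 and 1.07 ± 0.114 for F11r, and 3.51 ± 0.366 and 2.98 ± 0.337 for Esam. The mean ratio of Cldn5 thus went opposite ways in the genotypes, by less than the larger SD in each, and this was not tested. The call of Esam in WT was lost in 7 of 26 alternatives, with limma voom (adjusted p = 0.0956), with upper quartile scaling (0.0544), and without WT f3 (0.0654) or m3 (0.0639) of 4 weeks or WT f1 (0.0727), m2 (0.0747) or m3 (0.0516) of 2 weeks. In KO it was lost with limma voom (adjusted p = 0.0507).

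**Figure D4:**
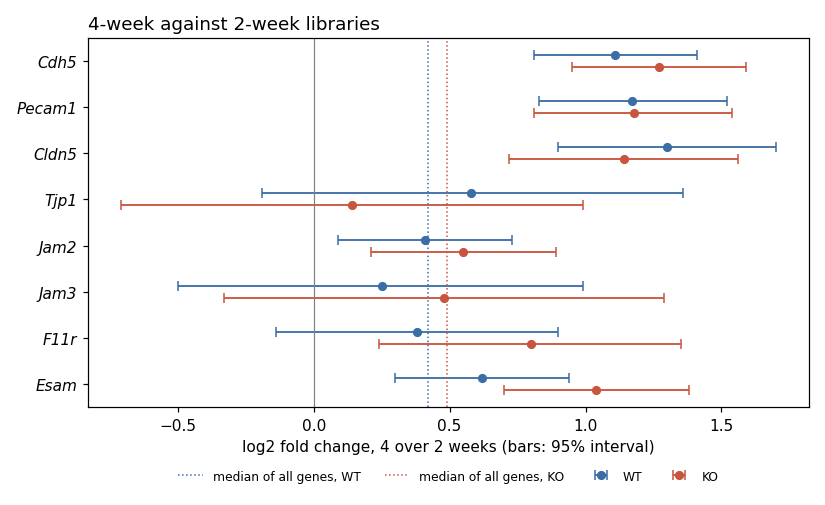
Log2 fold change of 4-week over 2-week libraries (horizontal axis) with its 95% interval for the 8 members tested, in WT (blue) and KO (red); dotted lines mark the median of all genes. Cdh5, Pecam1 and Cldn5 lie above 1 in both genotypes, and Tjp1, Jam2 and Jam3 lie near the dotted lines or below 1.

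The other genes of the junction were counted from lists. Of 13 adherens junction partners, 9 were tested at 2 weeks and 13 at 4 weeks, none was called, and 7 and 11 had a negative fold change (53.1% and 48.7% of all genes did), with medians of -0.34 and -0.25 against -0.06 and 0.01 for all genes. Those with the smallest p were Cdh13, encoding T-cadherin, at -0.73 (SE 0.257) and Jup, encoding plakoglobin, at -0.39 (SE 0.154) at 2 weeks, and the catenin genes Ctnna1 at -0.34 (SE 0.202) and Ctnnd1 at -0.43 (SE 0.273) at 4 weeks. Each had an adjusted p of 1. Ctnna1, named for its 4-week p, had 340 ± 18 CPM in KO and 415 ± 34.8 CPM in WT at 2 weeks (SD, n = 4). The genotypes did not overlap there, as in 3.36% of genes tested at 2 weeks, and did overlap at 4 weeks.

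Of 24 further claudins, plaque and polarity proteins of the tight junction, 9 and 18 were tested, none was called, and the medians were -0.05 at 2 weeks and 0.00 at 4 weeks. The polarity kinase gene Prkci had 4.02 (SE 3.29) at 2 weeks, adjusted p of 1, from 21.3 ± 19.3 CPM in KO and 2.2 ± 3.87 CPM in WT (SD, n = 4). At 4 weeks Amotl1, encoding an angiomotin-like protein, had -0.23 (SE 0.136) and Marveld2, encoding tricellulin, -1.17 (SE 0.694) from at most 17.9 CPM in any 4-week library. Of 4 connexins, 3 and 4 were tested, none was called and 3 had a negative value at each time, with medians of -0.78 and -0.29. Gja5, the arterial connexin, had -0.78 (SE 0.517) and -0.49 (SE 0.228), Gja1 -0.37 (SE 0.326) at 2 weeks and Gjc1 -0.38 (SE 0.35) at 4 weeks, each with an adjusted p of 1.

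Of 12 other endothelial contact proteins, 7 and 10 were tested and none was called, with medians of -0.17 and -0.02. Robo4, a guidance receptor that stabilises vessels, had -0.99 (SE 0.434) at 2 weeks, and Icam2, a ligand of leukocyte integrins, 0.31 (SE 0.195) and 0.14 (SE 0.171). Pcdh12, a protocadherin of endothelial contacts, had -0.77 (SE 0.458) at 4 weeks. Of 21 regulators of junctions, 19 and 20 were tested, 14 had a negative value at each time, and none was called; the medians were -0.09 and -0.08, close to the -0.06 of all genes at 2 weeks and below their 0.01 at 4 weeks. Tie1, a receptor of the angiopoietin system, had -0.81 (SE 0.309) and -0.52 (SE 0.188), Pdcd10, a cerebral cavernous malformation gene, 1.45 (SE 0.348) at 2 weeks and the kinase gene Yes1 -0.70 (SE 0.373) at 4 weeks, each with an adjusted p of 1. Pdcd10 was at 63.5 to 162 CPM in KO against 40.9 to 46.6 CPM in WT at 2 weeks and at 102 to 143 against 101 to 131 CPM at 4 weeks.

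The genes whose levels were most like each member's over the 9 libraries of 4 weeks were taken from 4711 genes of mean log2 CPM of at least 5, 3 for each member, by Pearson's r. They were Tie1 (0.984), Adam9 (0.98) and Jak1 (0.957) for Jam2, Ablim1 (0.985), Srgap2 (0.983) and Etl4 (0.981) for Tjp1, and Anxa5 (0.984), Cnih1 (0.983) and Gm28731 (0.976) for F11r. For Esam they were Arpc5l (0.973), Cenpt (0.969) and Rhoc (0.968), for Pecam1 Fam13c (0.961), Manba (0.94) and Ktn1 (0.935), and for Cldn5 Arpc4 (0.955), Gm48529 (0.902) and Tagln (0.896). Jam3 was most like its antisense neighbour Gm48796 (0.978), then Dok4 (0.871). Cdh5 had the loosest matches, Uba3 (0.876), Rasgrp2 (0.874) and Pcolce (0.871). With 9 libraries that share the length index, these values describe the libraries and are given without a test.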

How the data were processed

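Each library was made with SmartSeq2, which amplifies polyadenylated RNA without molecular identifiers, from cells sorted as CD45- Ter119- CD31+ Sca1+ per the labels' protocol (the design text omits Sca1). The authors deposited unnormalized counts per gene, made with cutadapt, STAR and HTSeq 0.6.1p1 on GRCm38 (mm10), per the submitters' processing notes; annotation, strand and multi-mapping settings are not given in the sources used here. Symbols, exon lengths and positions (1-based) came from GENCODE M21 (GRCm38), which matched 49326 of 49585 identifiers.

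Counts were tested with edgeR 4.0.16 in R 4.3.3 (filterByExpr, TMM, robust quasi-likelihood, sex as a term), each time point alone and all 17 libraries jointly for the mean effect, its difference and time. P-values were Benjamini-Hochberg adjusted over all genes, threshold 0.05. Steps were tested on simulated data. Exact permutation tests used log2 CPM (prior count 2). DESeq2 1.42.0, limma 3.58.1 voom, other scalings and filters, left-out libraries, a replicate block, and terms for stroma and length were alternatives. Both terms and the fold changes by length were added after seeing the data, and the 2 sets of 4-week libraries were drawn from the same data. Floors of 3 counts cover counting error only. The labels do not name individual animals, so p-values measure the spread between libraries.

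The members and 15 other lists (160 of 161 symbols matched in all) were chosen with earlier results of these data known. Named genes are the members, Eng, the 2 genes of smallest p per junction list and time, and the 3 genes most like each member, of which 2 genes are not reported here; Cxcl12 and Gm48796 were named after their values were seen.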

Additional observations from a re-analysis of the deposited data

Results flagged for a closer look

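Of 32 groups of values of the members other than Ocln, 4 held a single library far from the rest of its group, where chance gives about 5%. That rate does not hold for the 2 groups of Ocln, which are mostly at 0, so that any count stands apart there; they are given as values. Cdh5 was at 323 CPM in the 2-week KO library f1, against 193 to 200 CPM in the other 3, and Cldn5 was at 556 CPM in that library, against 325 to 345 CPM. Pecam1 was at 688 CPM in the 2-week KO library f4, against 988 to 1009.8 CPM. Jam2 was at 664 CPM in the 2-week KO library m2, against 404 to 448 CPM in the others. Neutrophil transcripts summed to 4039 CPM in m2, and to 3154 CPM in KO m3, where Jam2 was at 433 CPM. Ocln was at 1.56 CPM in the 4-week KO library f2, against 0 in the other 3, and at 0.63 CPM in the 4-week WT library f3, against 0 to 0.178 CPM. Both of these 4-week libraries had a low length index (-0.38 and -0.16). KO m3 (-0.39) and WT m3 (-0.12), also of low index, had no Ocln count, and WT f, with 0.178 CPM, had an index of 0.26.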

How the results depend on the processing

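Of 1238 values of single members under an alternative, 1161 kept their sign and their side of the threshold, 56 changed sign, 13 came to pass the threshold and 8 ceased to. No sign change touched Jam2, Esam at 2 weeks or a call between time points; all were of fold changes without a call. At 2 weeks Tjp1 was -0.10 with limma voom and Cldn5 -0.06 without KO m2 and m3, Pecam1 was 0.09 relative to Cdh5, and with the length index as a term Pecam1 was 0.04 and Jam3 0.79. At 4 weeks Cldn5 was 0.01 in the joint fit and 0.00 relative to Cdh5, and with upper quartile scaling Cdh5 was 0.03, F11r 0.02 and Cldn5 0.01. Esam at 4 weeks was -0.01 without the sex term, -0.14 and -0.16 with the stromal and length terms and -0.03 as a ratio of mean CPM. Without KO m2 and m3 of 2 weeks, Tjp1 was 0.04 for the mean effect and -0.38 between times in KO, and Jam3 was -0.13 for the difference of effects. With the length term in the joint fit, the mean effect was 0.21 for Tjp1 and -0.02 for Cldn5 and the difference for Pecam1 was -0.00, and with the stromal term the mean effect of Tjp1 was 0.05. The difference for Pecam1 was -0.01 with upper quartile scaling, -0.02 without mitochondrial genes and -0.01 without a filter. Leaving out 1 library at a time gave, at 2 weeks, -0.29 to 0.03 for Pecam1 and -0.25 to 0.26 for Tjp1, and at 4 weeks -0.11 to 0.11 for Esam, -0.09 to 0.04 for Cdh5, -0.16 to 0.05 for F11r and -0.14 to 0.06 for Cldn5. It gave -0.15 to 0.13 and -0.10 to 0.48 for the differences of Pecam1 and Jam3, and -0.16 to 0.42 for Tjp1 between times in KO. The cause of these changes was not tested.

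Over all genes, DESeq2 called 149 at 2 weeks, 17 at 4 weeks, 1396 for the mean effect, 1303 for the difference and 2938 and 2873 between times in WT and KO, where edgeR called 0, 0, 13, 12, 1086 and 994. The joint fit called 31 and limma voom 12 at 2 weeks, limma voom called 7 for the mean and 5 for the difference, and the length term left 4 for the mean. Without a low-count filter, which leaves more genes to adjust over, the counts were 8, 6, 580 and 567 for the last 4 comparisons, and without KO m2 and m3 they were 289 for the mean and 251 for the difference. Leaving out 1 library at a time gave 5 to 60, 7 to 51, 588 to 1261 and 504 to 1222. Members called rose from 0 to 1, which was Jam2, with DESeq2 at 2 weeks and for the mean effect, and for the mean effect without KO m2 (0 to 1 over the left-out libraries) and without KO m2 and m3. In the fit with a replicate block, which pairs libraries by number, 0 genes were called for the mean effect and 0 for the difference, Jam2 was -0.61 at 2 weeks and -0.43 at 4 weeks, Tjp1 was -0.03 at 2 weeks and the difference for Pecam1 was -0.02. Libraries of the same number did not deviate together throughout (r of -0.024 to 0.049 at 2 weeks, 4 pairs, and 0.0543 to 0.161 at 4 weeks, 3 pairs), so the block is only an alternative; between times none could be fitted. Counting error alone gives Ocln a floor of 0.0734 to 0.122 CPM where it had no count, and Jam3 had as few as 622 counts. That floor does not cover transcripts lost before sequencing. Fewer genes were detected in the 2-week libraries (10886 to 13583 against 15996 to 21235).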
